A study of Mus musculus with 57 samples.

Results

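The sirtuin family, Sirt1 to Sirt7, was followed in mouse heart mRNA. Its 7 members were taken by gene symbol from 2 count tables, one with 25416 genes and one with 54658 genes, and all 7 were present in both. The tables hold 57 hearts of wild-type male B6 mice, 1 heart per library, sequenced as poly(A) RNA after treatment with doxorubicin (Doxo), an anthracycline that damages the heart, with or without nicotinamide mononucleotide (NMN), a precursor of NAD+. In the acute study, mice bought at 9 weeks of age received saline (Ctrl, n = 14), 1 i.p. injection of Doxo at 20 mg/kg (Doxo, n = 13), or the same Doxo with daily i.p. NMN at 180 mg/kg begun 5 days earlier (Doxo-NMN, n = 13), and hearts were taken 5 days after Doxo, at D5. In the chronic study, mice aged 14 to 16 weeks received PBS (Ctrl, n = 5), 5 i.p. injections of Doxo at 4 mg/kg within 2 weeks for a total of 20 mg/kg (Doxo, n = 6), or that regimen with NMN at 500 mg/kg/day in drinking water (Doxo-NMN, n = 6), and hearts were taken 60 days after the first injection. Acute NMN was given daily up to D5, and acute hearts were taken 2 hours after its last injection. Chronic NMN began 5 days before the first Doxo injection and was given until collection. Only mice alive at collection gave hearts, and no analysed group received NMN without Doxo. In the acute study the paper reports better survival with NMN than with Doxo alone, so the share of mice that could give hearts differed between these groups.

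Sirtuins remove acetyl and other acyl groups from lysines and consume NAD+ in each reaction, so NAD+ supply bears on their activity. Sirt1, Sirt6 and Sirt7 act mainly in the nucleus, Sirt2 mainly in the cytosol, and Sirt3, Sirt4 and Sirt5 in mitochondria. Sirt3 is the main mitochondrial deacetylase, Sirt5 removes succinyl, malonyl and glutaryl groups, and Sirt4 has weak deacetylase activity along with several other activities. mRNA was measured here, and neither protein nor enzyme activity was.

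On GRCm38 the members lie on 5 chromosomes: Sirt1 at chr10:63319005-63381704 on the minus strand, Sirt2 at chr7:28766735-28788661 on the plus strand, Sirt3 at chr7:140863666-140882309 on the minus strand, Sirt4 at chr5:115478010-115484725 on the minus strand, Sirt5 at chr13:43365496-43395203 on the plus strand, Sirt6 at chr10:81621785-81627797 on the minus strand and Sirt7 at chr11:120618372-120625240 on the minus strand. The promoters of the member that rose most and the member that fell most at D5, Sirt1 and Sirt3, are printed here with that of Sirt4, which fell with Sirt3. Each is a RefSeq window of 300 bases on GRCm38.p6, from 250 bases before to 50 after a start site, written 5′ to 3′ on the gene's strand. Capitals mark every match, on either strand, to the motifs searched: the GC box GGGCGG, the E-box CACGTG, the CCAAT box CCAAT, the ETS core CCGGAAG, the palindromic NRF1 core of 10 letters, the CRE TGACGTCA, the FOXO core GTAAACA and the ERR element TCAAGGTCA.
Sirt1, chr10:63338986-63339285, minus strand: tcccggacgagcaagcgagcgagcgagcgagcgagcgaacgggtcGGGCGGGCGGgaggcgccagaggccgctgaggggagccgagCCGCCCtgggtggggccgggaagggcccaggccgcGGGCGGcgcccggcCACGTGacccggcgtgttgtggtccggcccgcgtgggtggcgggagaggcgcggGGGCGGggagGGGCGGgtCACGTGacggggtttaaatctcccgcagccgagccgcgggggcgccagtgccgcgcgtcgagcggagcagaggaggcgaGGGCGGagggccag
Sirt3, first start site, chr7:140882260-140882559, minus strand: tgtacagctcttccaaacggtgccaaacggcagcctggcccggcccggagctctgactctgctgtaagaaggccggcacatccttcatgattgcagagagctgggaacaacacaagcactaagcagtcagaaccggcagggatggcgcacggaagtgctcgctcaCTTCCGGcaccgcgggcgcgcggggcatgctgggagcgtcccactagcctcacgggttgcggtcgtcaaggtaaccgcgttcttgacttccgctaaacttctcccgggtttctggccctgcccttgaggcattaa
Sirt3, second start site, chr7:140881820-140882119, minus strand: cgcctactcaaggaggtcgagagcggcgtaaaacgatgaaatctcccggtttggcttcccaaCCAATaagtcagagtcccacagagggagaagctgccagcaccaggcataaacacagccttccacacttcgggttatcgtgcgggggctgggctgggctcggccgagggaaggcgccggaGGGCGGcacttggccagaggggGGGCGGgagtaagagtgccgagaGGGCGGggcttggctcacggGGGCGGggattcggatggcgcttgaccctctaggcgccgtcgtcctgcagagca
Sirt4, chr5:115484248-115484547, minus strand: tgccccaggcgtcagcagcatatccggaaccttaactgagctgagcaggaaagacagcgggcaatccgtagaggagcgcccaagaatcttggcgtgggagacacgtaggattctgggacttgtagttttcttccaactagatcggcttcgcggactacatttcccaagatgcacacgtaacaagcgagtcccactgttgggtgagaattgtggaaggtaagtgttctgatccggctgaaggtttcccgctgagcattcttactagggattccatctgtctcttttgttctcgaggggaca

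The Sirt1 window held 7 GC boxes, a pair of which overlap, and 2 E-boxes. The Sirt3 windows differed from each other: the first held 1 ETS core, and the second 4 GC boxes and 1 CCAAT box. None of the letters searched for were in the Sirt4 window. The other members had a GC box and a CCAAT box (Sirt5), a GC box and 2 CCAAT boxes (Sirt2), an NRF1 core, an ETS core and, in a second window, a GC box (Sirt6), or a GC box and 2 ETS cores (Sirt7). Of all 32851 promoter windows in the table, 35.7% held a GC box, 37.4% a CCAAT box, 8.86% an ETS core, 7.15% an E-box and 0.971% an NRF1 core. The CRE (1.79% of windows), the FOXO core (3.65%) and the ERR element (0.423%) were in no sirtuin window. These matches describe the letters and are not binding sites.

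Library totals were 32409622 to 52102850 counts in the acute study (40 hearts) and 17769886 to 23862287 in the chronic study (17 hearts). Of counts from 1 to 20, 73.6% were even in the median acute heart, against 40.3% in the median chronic heart, for a cause that was not tested. Dividing the acute counts by 2 left the number of sirtuins called in each acute comparison at 7, 5 and 2, and added a call of Sirt7 and of Sirt3 in the comparison of the 2 studies. Acute Doxo replicate 6 lay among the Ctrl hearts for Cdkn1a, a p53 target that rises with Doxo, at 56.4 CPM (counts scaled to library size), where the Doxo group reached 307 CPM. In the chronic study, Doxo replicate 2 and Ctrl replicate 1 were least like the other hearts, with median Spearman correlations of 0.968 and 0.973 to the rest. The 7 cardiomyocyte markers together held 29780 to 81120 CPM in every heart of either study.

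Per length of the gene, Sirt2 was the most abundant sirtuin in every group. In acute Ctrl hearts it stood at 14.4 ± 1.26 RPKM (CPM per kilobase of exon; SD, n = 14), and its range did not overlap that of any other member. The mitochondrial members followed, with Sirt5 at 5.01 ± 0.549, Sirt4 at 5.0 ± 0.520 and Sirt3 at 4.95 ± 0.603 RPKM. These 3 levels overlapped throughout and their order cannot be told. Sirt1 came next at 3.29 ± 0.255 RPKM, below the range of Sirt3, and the nuclear members Sirt7 (2.05 ± 0.157) and Sirt6 (1.93 ± 0.253) were lowest and overlapped each other.

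In acute Doxo hearts the order changed below Sirt2. Sirt1 stood second at 6.45 ± 2.5 RPKM (SD, n = 13) and was above Sirt5 in 10 of 13 hearts, while Sirt3, behind Sirt5 and Sirt4, was at 2.63 ± 1.07 RPKM and overlapped Sirt7. In Doxo-NMN hearts Sirt5 was at 5.70 ± 0.690, Sirt4 at 4.65 ± 0.716, Sirt3 at 4.31 ± 0.655 and Sirt1 at 3.75 ± 0.529 RPKM. These means ran in the order of the Ctrl means, which could not be told for the mitochondrial members. Neighbouring ranges overlapped here too, also those of Sirt3 and Sirt1, which were apart in Ctrl hearts. In chronic Ctrl hearts Sirt2 was again highest at 21.1 ± 1.64 RPKM (SD, n = 5), and Sirt1 was lowest at 1.91 ± 0.250 RPKM, with a range below that of Sirt6. The 2 tables were made and normalised apart, so levels are not compared between them. The order leans on the length used: with the longest transcript in place of all exons, Sirt5 and Sirt3 stood above Sirt4 in acute Ctrl hearts, at 12.6 ± 1.38, 9.23 ± 1.12 and 6.69 ± 0.695 RPKM. On that length Sirt1 did not stand second in acute Doxo hearts: Sirt5, at 9.80 ± 2.12 RPKM against 7.76 for Sirt1, was above it in 10 of 13 hearts. Sirt3 (4.91) was then above Sirt4 (4.49).

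**Figure D1:**
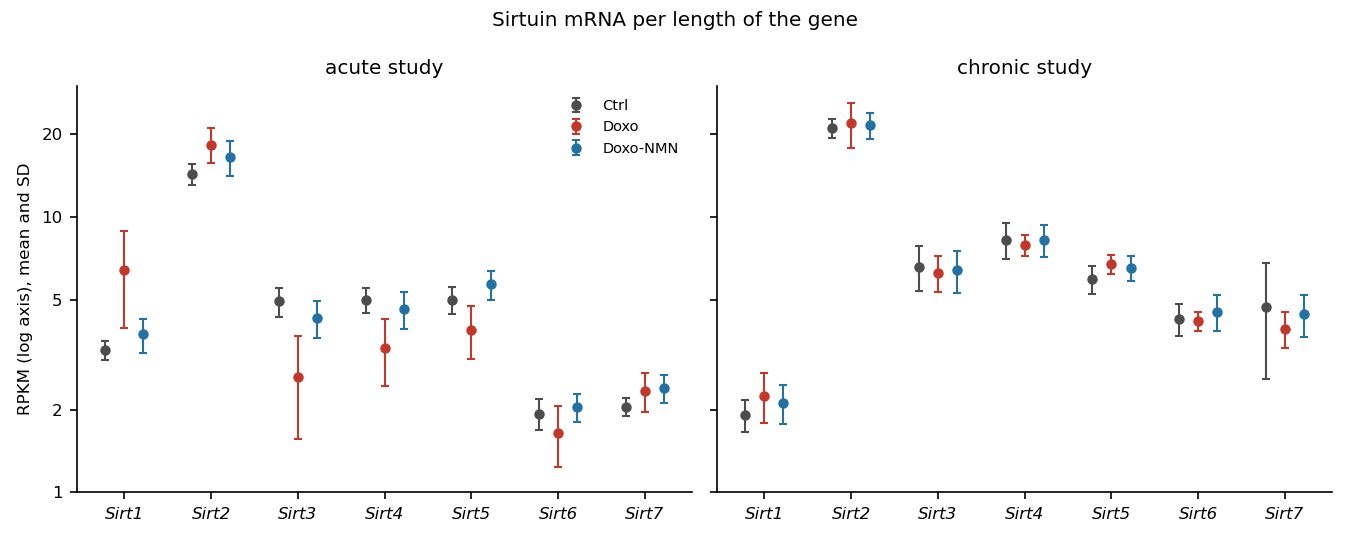
Mean RPKM per group on a log axis for Sirt1 to Sirt7 in the acute (left) and chronic (right) study, with SD as bars and groups by colour (Ctrl grey, Doxo red, Doxo-NMN blue). Sirt2 is highest in all 6 groups, and in acute Doxo hearts Sirt1 (6.45) moves above Sirt5, Sirt4 and Sirt3 (2.63) with all exons as length, though not above Sirt5 with the longest transcript (7.76 against 9.80).

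The first comparison asked what a single Doxo dose did to sirtuin mRNA at D5. Sirt1 and Sirt2 rose and the 3 mitochondrial members fell, with smaller changes of Sirt6 (down) and Sirt7 (up). All 7 members were called at an adjusted p under 0.05 by edgeR's quasi-likelihood test, 3 higher and 4 lower, where 68.1% of the 14240 genes tested were called (34.8% higher, 33.3% lower). A call alone therefore did not set the family apart. With a fold change of at least 1.5 as well, 2 members were called, Sirt1 and Sirt3, where 30.1% of genes were.

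Sirt1, the nuclear deacetylase of p53, FOXO factors and PGC-1alpha, had a lowest, median and highest level of 15.5, 17.5 and 20.3 CPM in Ctrl hearts and of 16.6, 29.7 and 60.4 CPM in Doxo hearts. 12 of 13 Doxo hearts lay above the highest Ctrl heart, the exception being replicate 6 at 16.6 CPM. The mean rose from 17.5 ± 1.36 (SD, n = 14) to 34.4 ± 13.3 CPM (n = 13), a log2 fold change of 0.97 (SE 0.126, edgeR adjusted p = 2.75e-08). The SD among hearts grew along with the mean. With all hearts, 0.435% of genes had Doxo hearts entirely above Ctrl hearts and 0.471% entirely below. Without replicate 6 the Doxo mean was 35.9 CPM and the groups did not overlap, as for 7.72% of genes with Doxo hearts above and 6.5% with Doxo hearts below. Replicate 6 was the only overlapping heart, so leaving it out was bound to part the groups and adds no support.

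Sirt3, the mitochondrial deacetylase of enzymes such as Sod2 and Idh2, moved the other way. Its lowest, median and highest levels were 23.6, 29.5 and 35.2 CPM in Ctrl hearts and 8.79, 14 and 31.0 CPM in Doxo hearts. Again 12 of 13 Doxo hearts lay outside the Ctrl range, here below it, and replicate 6 was the exception. The mean went from 29.6 ± 3.6 to 15.7 ± 6.39 CPM, a log2 fold change of -0.91 (SE 0.133, edgeR adjusted p = 2.41e-07), or 1.88-fold lower.

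The other mitochondrial members fell less. Sirt4, which acts on lipid and amino acid use, had 9.64, 11.8 and 14.2 CPM as lowest, median and highest in Ctrl hearts and 5.67, 7.60 and 12.8 CPM in Doxo hearts, with 11 of 13 Doxo hearts below the lowest Ctrl heart. Its log2 fold change was -0.57 (SE 0.101, edgeR adjusted p = 5.32e-06), a 1.49-fold drop just short of the 1.5-fold mark. Sirt5, the desuccinylase, had 24.3, 30.9 and 35.8 CPM in Ctrl hearts and 16.8, 23.9 and 32.7 CPM in Doxo hearts. Its groups overlapped more, with 8 of 13 Doxo hearts below the Ctrl range, and its log2 fold change was -0.36 (SE 0.0861, edgeR adjusted p = 0.000348). The study picked Sirt5 for display from these same hearts, so its change here is not independent evidence.

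Sirt2, the cytosolic deacetylase known for alpha-tubulin, ran from 64.1 through a median of 72.8 to 81.5 CPM in Ctrl hearts and from 74.0 through 91.3 to 113 CPM in Doxo hearts. All 13 Doxo hearts were above the Ctrl median and 10 were above the highest Ctrl heart, for a log2 fold change of 0.35 (SE 0.0697, edgeR adjusted p = 2.99e-05). Sirt6 and Sirt7, chromatin and nucleolar members, changed least. Sirt7 went from a median of 10.7 to 11.8 CPM (log2 fold change 0.19, SE 0.0697, edgeR adjusted p = 0.0156), and the groups overlapped widely. With no filter on low counts Sirt7 was at 0.16 and lost its call (adjusted p = 0.0527). Sirt6 went from a median of 5.25 to 4.53 CPM (log2 fold change -0.23, SE 0.0990, edgeR adjusted p = 0.0414), with 6 Doxo hearts below the Ctrl range and 1 above it. The Sirt6 call was lost on leaving out any of 10 hearts (Ctrl replicates 3, 4 and 6, and Doxo replicates 1, 4, 5, 10, 11, 12 and 13), with log2 fold changes of -0.22 to -0.19 and adjusted p values of 0.0517 to 0.0824.

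**Figure D2:**
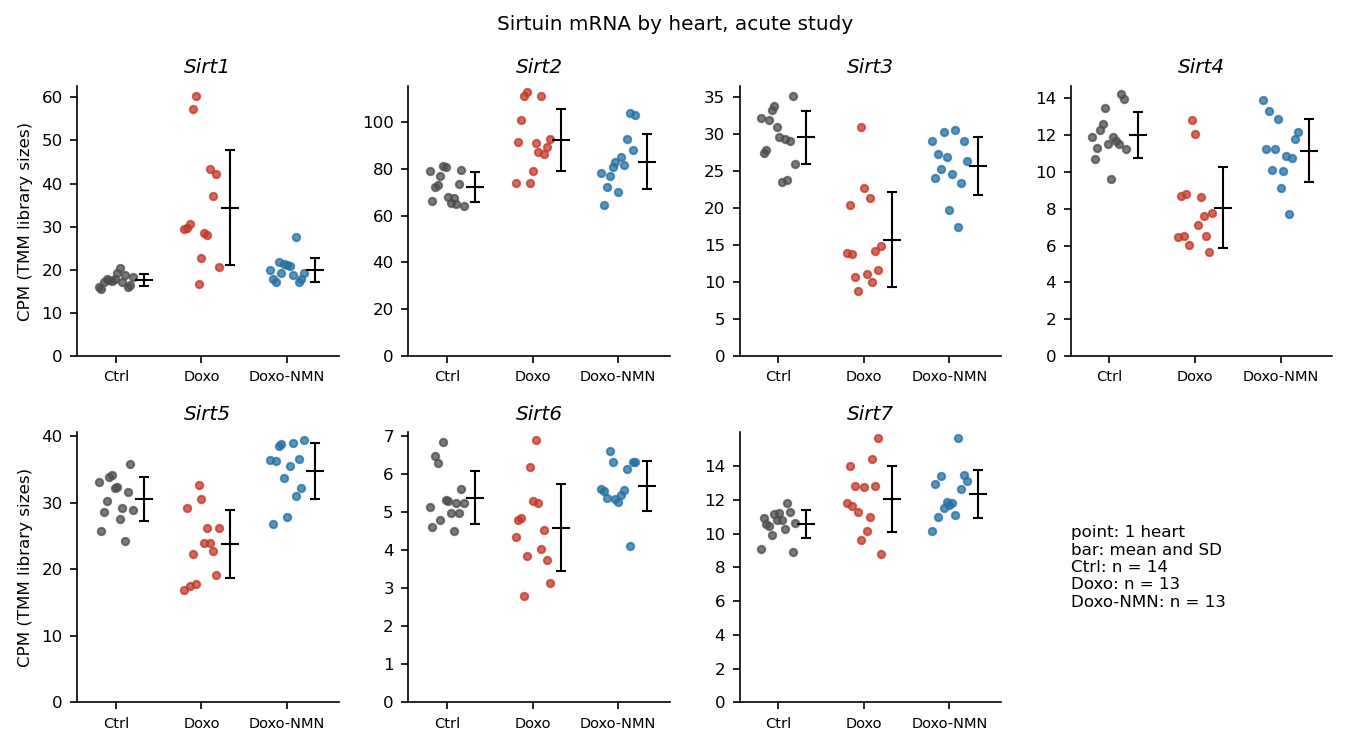
CPM of each sirtuin in the acute study, 1 point per heart, with the group mean and SD as a black bar (Ctrl n = 14, Doxo n = 13, Doxo-NMN n = 13). Sirt1 spreads from 16.6 to 60.4 CPM in Doxo hearts against 15.5 to 20.3 in Ctrl, Sirt3 falls to 8.79 CPM in the lowest Doxo heart, and the Doxo-NMN points of Sirt1, Sirt3 and Sirt4 lie nearer the Ctrl points.

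The second comparison asked whether NMN changed these levels in Doxo-treated mice. Adding NMN went with less Sirt1 and more Sirt3, Sirt4, Sirt5 and Sirt6 mRNA. By edgeR 5 of 7 members were called, 4 higher and 1 lower, where 53% of all genes were called (25.7% higher, 27.4% lower). Sirt1 and Sirt3 were called past 1.5-fold, as were 17.1% of genes. Doxo-NMN vs. Doxo and Doxo vs. Ctrl share the 13 Doxo hearts, so opposite signs in the 2 comparisons are not separate evidence.

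Sirt1 had 17.1, 19.3 and 27.7 CPM as lowest, median and highest in Doxo-NMN hearts, and all 13 lay below the Doxo median of 29.7 CPM. The spread was narrower than in Doxo hearts, 20 ± 2.82 against 34.4 ± 13.3 CPM (SD, n = 13 each), and the log2 fold change was -0.78 (SE 0.129, edgeR adjusted p = 8.64e-06). Sirt3 had 17.5, 26.4 and 30.6 CPM in Doxo-NMN hearts, all above the Doxo median of 14 CPM, for a log2 fold change of 0.71 (SE 0.135, edgeR adjusted p = 5.41e-05). In both genes the Doxo-NMN hearts stayed within the full range of the Doxo hearts, which includes replicate 6.

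Sirt5 was the mitochondrial member with the clearest separation. Its Doxo-NMN hearts ran from 26.8 through 36.2 to 39.4 CPM, and 9 of 13 lay above the highest Doxo heart, for a log2 fold change of 0.55 (SE 0.0876, edgeR adjusted p = 5.7e-06). Sirt4 ran from 7.69 through 11.2 to 13.9 CPM in Doxo-NMN hearts, with all 13 above the Doxo median (log2 fold change 0.47, SE 0.102, edgeR adjusted p = 0.000255). Sirt6 was above the Doxo median in 12 of 13 Doxo-NMN hearts (log2 fold change 0.31, SE 0.101, edgeR adjusted p = 0.0100). Sirt7 was not called, with a log2 fold change of 0.03 (95% interval -0.11 to 0.18). Sirt2 missed the threshold at -0.15 (interval -0.30 to -0.01, edgeR adjusted p = 0.0659), and it passed with log2 fold changes of -0.18 to -0.17 and adjusted p values of 0.0259 to 0.0474 on leaving out any one of Doxo replicates 1, 6 and 7 and Doxo-NMN replicates 10, 11 and 13.

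Against Ctrl, 2 of 7 members differed in Doxo-NMN hearts, where 26% of genes were called (15% higher, 11.1% lower). Sirt7 was at 12.3 ± 1.42 against 10.6 ± 0.806 CPM (log2 fold change 0.22, SE 0.0695, edgeR adjusted p = 0.0159), and 8 of 13 Doxo-NMN hearts lay above the highest Ctrl heart. Sirt2 was at 83.2 ± 11.8 against 72.4 ± 6.33 CPM (log2 fold change 0.20, SE 0.0697, edgeR adjusted p = 0.0299). Its highest Doxo-NMN hearts were replicates 10 to 13, at 92.8, 104, 88.3 and 103 CPM. Replicates 1 to 9 ran from 64.7 to 85.1 CPM, and the cause of this split was not tested. The Sirt2 call was lost without Doxo-NMN replicate 10, 11 or 13, with log2 fold changes of 0.17 to 0.19 and adjusted p values of 0.0545 to 0.0683. The other 5 members were not called, with 95% intervals of the log2 fold change of -0.07 to 0.44 for Sirt1, -0.47 to 0.06 for Sirt3, -0.31 to 0.10 for Sirt4, 0.01 to 0.36 for Sirt5 and -0.12 to 0.28 for Sirt6. When Doxo-NMN and Ctrl hearts were fitted without the Doxo hearts, Sirt1 (0.19), Sirt3 (-0.20) and Sirt5 (0.18) were called too, with edgeR adjusted p values of 0.0143, 0.0310 and 0.0219.

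**Figure D3:**
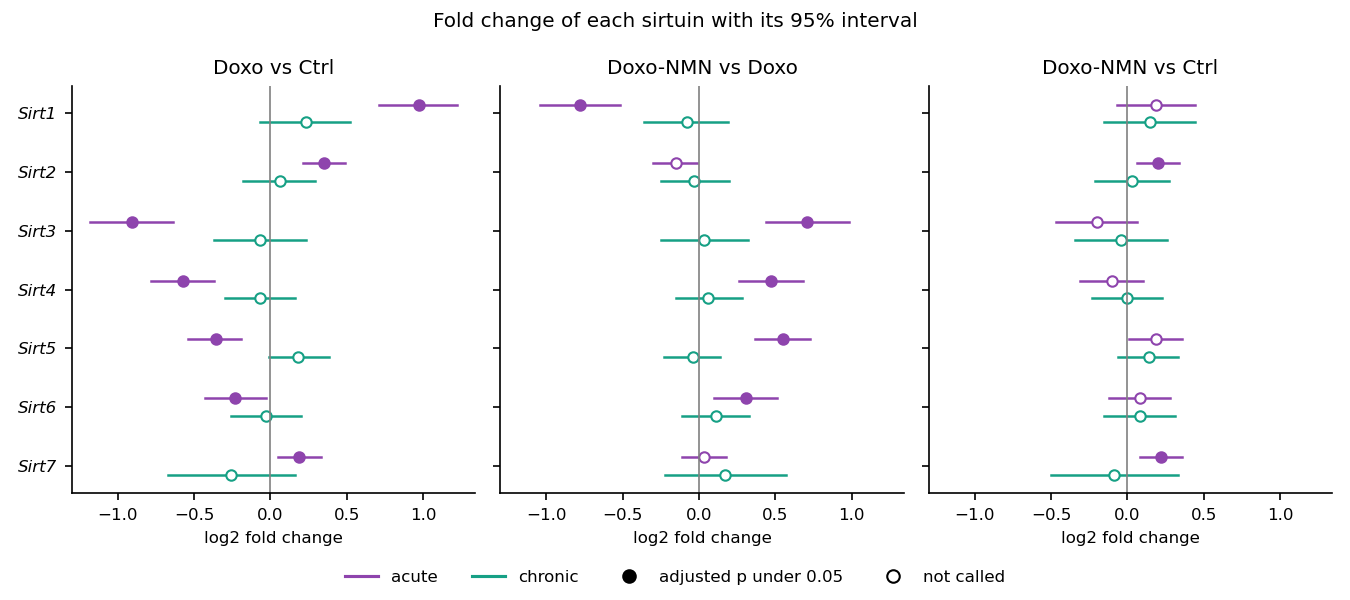
Log2 fold change of each sirtuin with its 95% interval in the 3 comparisons (panels), for the acute (purple) and chronic (green) study; filled points have an adjusted p under 0.05. The acute points run from -0.91 (Sirt3) to 0.97 (Sirt1) in Doxo vs. Ctrl and change side in Doxo-NMN vs. Doxo for all members but Sirt7, while every chronic point is open.

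Marker mRNA of several cell types differed between the acute groups and is given beside these values. In Doxo vs. Ctrl, 1 of 5 fibroblast and 1 of 5 macrophage markers were called higher, and 2 of each lower. Of 5 endothelial markers 1 was higher and 1 lower, and of 4 smooth muscle and pericyte markers 2 were lower. The share called over all genes was 68.1%. The summed neutrophil markers ran from 1.59 to 4.99 CPM in Ctrl, 2.69 to 258 in Doxo and 4.66 to 28.6 in Doxo-NMN hearts, and all 4 rose with Doxo. The 3 red cell precursor markers all fell with Doxo. Their sum ran from 189 to 1862 CPM in Ctrl hearts and from 0.663 to 146 CPM across Doxo hearts. All 3 were called lower again in Doxo-NMN vs. Doxo, where the sum with NMN was 0.209 to 1.41 CPM. The median sums lay close together, however: 1.25 CPM under Doxo alone against 0.901 once NMN was added. The top of the Doxo range lay far above its median, and its weight in these calls was not tested. The 5 fibroblast markers summed to 546 to 1034 CPM in Ctrl, 491 to 1303 in Doxo and 433 to 1040 in Doxo-NMN hearts. In Doxo-NMN vs. Doxo 2 of them were higher and 3 lower, where 53% of all genes were called. In that comparison 2 of 5 macrophage markers were higher, and 2 of 5 endothelial and 3 of 4 neutrophil markers lower. Of 7 cardiomyocyte markers 3 were higher there and 2 lower, and 1 of 4 smooth muscle and pericyte markers was higher. Cardiomyocyte markers were mixed, with 2 of 7 higher and 4 lower in Doxo vs. Ctrl, and a sum with a median of 63540 CPM in Ctrl, 52620 in Doxo and 68480 in Doxo-NMN hearts. In bulk tissue fewer cells of a type and less RNA per cell cannot be told apart, and the part of these shifts in the sirtuin values was not tested.

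Some acute hearts held atrial tissue. Myl4, an atrial myosin light chain, reached 100 CPM in 8 of 14 Ctrl, 5 of 13 Doxo and 4 of 13 Doxo-NMN hearts. Within hearts under 100 CPM of Myl4, Doxo vs. Ctrl gave log2 fold changes of 1.05 for Sirt1, -1.03 for Sirt3, -0.63 for Sirt4, -0.42 for Sirt5 and 0.28 for Sirt2, all called by edgeR. Within hearts at or above 100 CPM the same members gave 0.86, -0.83, -0.59, -0.40 and 0.36, again all called. Sirt6 (-0.25 and -0.22) was called in neither, and Sirt7 (0.16 and 0.27) only at or above 100 CPM. In Doxo-NMN vs. Doxo, Sirt1, Sirt3, Sirt4 and Sirt5 were called within each kind of heart, whereas Sirt6 (0.30 and 0.31) was called in neither. Sirt2 was called there only at or above 100 CPM, at -0.29 against -0.12. In Doxo-NMN vs. Ctrl no member was called within either kind of heart.

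Doxo hearts varied in how far they had responded, and Cdkn1a, a single gene, was taken as the measure. The share of all genes with a correlation as strong was not counted. The relations below are therefore not shown to be particular to the sirtuins. Cdkn1a averaged 63.0 ± 10.3 CPM in Ctrl, 183 ± 68.9 in Doxo and 77.6 ± 23.2 in Doxo-NMN hearts. Among the 13 Doxo hearts, log2 CPM of Sirt3 fell with that of Cdkn1a (Pearson r = -0.82, permutation p = 0.00072, adjusted over 14 relations 0.0101; Spearman rho = -0.75, permutation p = 0.00401, adjusted 0.0561). Sirt1 rose with it (r = 0.71, permutation p = 0.00642, adjusted 0.0180; rho = 0.57, permutation p = 0.0474, adjusted 0.111), and so did Sirt2 (r = 0.74, permutation p = 0.00249, adjusted 0.0116; rho = 0.69, permutation p = 0.0118, adjusted 0.0661). For Sirt4, r was -0.64 (permutation p = 0.0190, adjusted 0.0381) and rho -0.23 (permutation p = 0.449, adjusted 0.524).

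Doxo replicates 6 and 7, at 56.4 and 78.1 CPM of Cdkn1a, stood apart from the other 11 Doxo hearts, which began at 148 CPM. Among those 11, r was 0.64 for Sirt2 (permutation p = 0.0328), -0.55 for Sirt3 (permutation p = 0.0810), 0.46 for Sirt1 (permutation p = 0.161) and 0.35 for Sirt4 (permutation p = 0.281). Sirt3 kept its direction among these 11 without a raw p under 0.05, as did Sirt1, whereas the sign of Sirt4 turned and only Sirt2 kept a raw p under 0.05. Without replicate 6 alone, r was 0.56 for Sirt1 (permutation p = 0.0587), 0.68 for Sirt2 (permutation p = 0.0139), -0.69 for Sirt3 (permutation p = 0.00912) and -0.39 for Sirt4 (permutation p = 0.211). Sirt5 (r = -0.49, permutation p = 0.0863, adjusted 0.121), Sirt6 (r = -0.58, permutation p = 0.0371, adjusted 0.0649) and Sirt7 (r = 0.12, permutation p = 0.696, adjusted 0.749) did not pass, with rho of -0.38 (permutation p = 0.194, adjusted 0.302), -0.58 (permutation p = 0.0401, adjusted 0.111) and -0.01 (permutation p = 0.993, adjusted 0.993).

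Among the 13 Doxo-NMN hearts, Sirt3 gave r = -0.80 (permutation p = 0.00202, adjusted 0.0116; rho = -0.67, permutation p = 0.0152, adjusted 0.0661). Sirt4 gave r = -0.76 (permutation p = 0.00438, adjusted 0.0153; rho = -0.65, permutation p = 0.0189, adjusted 0.0661) and Sirt1 r = 0.71 (permutation p = 0.0160, adjusted 0.0374; rho = 0.39, permutation p = 0.190, adjusted 0.302). Without replicates 10 and 11, the hearts farthest from the median of Cdkn1a, r was 0.64 for Sirt1 (permutation p = 0.0360), -0.51 for Sirt3 (permutation p = 0.103) and -0.50 for Sirt4 (permutation p = 0.121), so Sirt3 and Sirt4 kept their direction but not a raw p under 0.05. The other 4 members did not pass in this group, with r of -0.13 to 0.57 and adjusted permutation p values of 0.0740 to 0.886, and rho of -0.27 to 0.42 with adjusted permutation p values of 0.302 to 0.991.

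**Figure D4:**
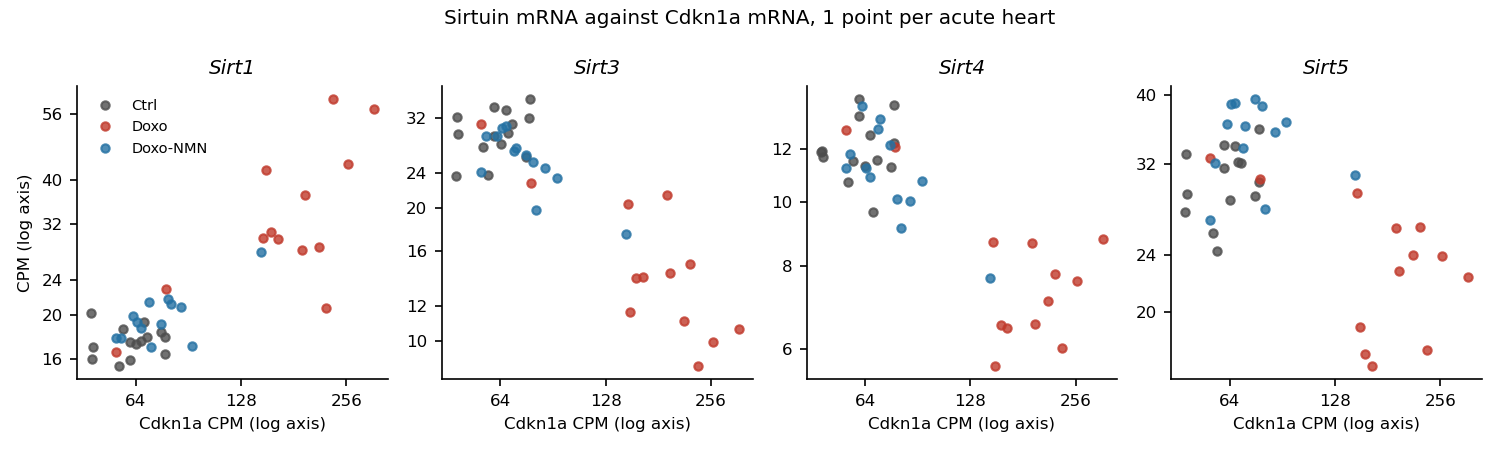
CPM of Sirt1, Sirt3, Sirt4 and Sirt5 (y, log axis) against CPM of Cdkn1a (x, log axis) in the 40 acute hearts, 1 point each, coloured by group. The Doxo points lie apart from the Ctrl points except replicates 6 and 7, at 56.4 and 78.1 CPM of Cdkn1a, and most Doxo-NMN points lie among the Ctrl points.

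With group means removed, 40 acute hearts were also used to describe which members varied together. The deviations in log2 CPM of the 3 mitochondrial members went together, with r of 0.74 for Sirt3 and Sirt4, 0.71 for Sirt3 and Sirt5 and 0.68 for Sirt4 and Sirt5 (rho of 0.70, 0.75 and 0.60). Sirt1 ran against Sirt3, with r of -0.77 and rho of -0.53. Without Doxo replicate 6 these values were 0.66, 0.66, 0.62 and -0.69. They share libraries and the wide spread of the Doxo group, and were not tested. Sirt2 and Sirt3 showed how this differed by group, with r of 0.85 among Ctrl hearts and -0.74 among Doxo hearts.

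By the same measure over 14239 other genes, those most like Sirt1 were Polr2a (r = 0.93), which encodes the largest subunit of RNA polymerase II, Hps3 (0.90) and Mylip (0.88). Sirt3 was closest to Ptcd2 (0.95) and Mrm2 (0.93), which encode mitochondrial RNA proteins, and to Fblim1 (0.93). Sirt5 was closest to Timmdc1 (0.89), Ptges2 (0.84) and Sdhaf2 (0.84), and Sirt4 to Fkbp4 (0.87), Hemk1 (0.86) and Tufm (0.86), the mitochondrial elongation factor. Timmdc1 and Sdhaf2 encode assembly factors of respiratory complexes. Sirt2 was closest to Sympk, Trappc9 and Des (0.92 each), Des being the muscle intermediate filament desmin. Sirt7 (Poldip3, Naglu and Gata2, 0.74 to 0.75) and Sirt6 (Slc46a1, Alyref2 and Mrgprf, 0.68 to 0.70) had weaker matches. Spearman rho over the same deviations was 0.67 to 0.70 for the genes named with Sirt1, 0.88 to 0.93 with Sirt2, 0.83 to 0.93 with Sirt3, 0.77 to 0.82 with Sirt4, 0.81 to 0.86 with Sirt5, 0.42 to 0.51 with Sirt6 and 0.61 to 0.66 with Sirt7. These correlations are across hearts after grouping and describe likeness only.

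Several sirtuins share bases with a neighbour, and strand use in the counting is not given in the sources used here, so reads from the shared bases cannot be told apart. Sirt3 shares 342 bases of gene span with Psmd13, a proteasome subunit gene, and 707 with Ric8a, both on the opposite strand. Both neighbours rose with Doxo while Sirt3 fell: Psmd13 went from 63.3 ± 3.71 to 105 ± 24.8 CPM (log2 fold change 0.73, SE 0.0865, edgeR adjusted p = 4.82e-09) and Ric8a from 17.3 ± 0.903 to 25.7 ± 4.64 CPM (0.57, SE 0.0857, edgeR adjusted p = 3.51e-07). Sirt2 shares 778 bases with Nfkbib, an NF-kappaB inhibitor gene, which rose from 13.1 ± 0.940 to 27.4 ± 8.73 CPM (1.06, SE 0.128, edgeR adjusted p = 6.2e-09), in the same direction as Sirt2. How much of the Sirt2 count comes from the shared bases was not tested.

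Sirt7 shares 124 bases with Mafg on its own strand, and Mafg went from 55.8 ± 4.28 to 66.3 ± 21.9 CPM (log2 fold change 0.25, SE 0.107, edgeR adjusted p = 0.0364). Mir6936 and the antisense gene Gm16145 overlap Sirt7 and Sirt1. Dnajc12 starts 739 bases from the outer end of the annotated Sirt1 span, chr10:63381704, in head to head orientation. The printed Sirt1 window, chr10:63338986-63339285, lies well inside that span, so its start site is not within 1000 bases of Dnajc12. Dnajc12 rose with Doxo by 0.31 on the log2 scale (SE 0.0725, edgeR adjusted p = 0.000324). Ankrd24 starts 743 bases from Sirt6 and fell by 0.56 (SE 0.0959, edgeR adjusted p = 3.72e-06), in the direction of Sirt6. Sirt4 and Sirt5 have no overlapping or head to head gene within 1000 bases in the annotation.

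In the chronic study the question was whether fractionated Doxo, read 60 days after the first injection, left a change in the sirtuins. No member was called by edgeR. Of the 14960 genes tested, 0.0602% were called in Doxo vs. Ctrl, 0% with NMN against Doxo alone and 0.0401% with NMN against Ctrl. DESeq2 and limma called none either, and no member had an unadjusted p under 0.05 by any of the 3 tools. The lowest unadjusted p by edgeR was 0.0662, for Sirt5 in Doxo vs. Ctrl.

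Sirt5 was 31.5, 34.6, 36.3, 43 and 35.9 CPM in the 5 Ctrl hearts, and its lowest, median and highest levels in the 6 Doxo hearts were 36.9, 41.3 and 45.2 CPM. All 6 Doxo hearts were above the Ctrl median of 35.9 CPM, yet the ranges overlapped. Its log2 fold change was 0.18 (95% interval -0.01 to 0.38, edgeR adjusted p = 0.659). Sirt1 was 10.2, 12.3, 9.04, 8.99 and 10.5 CPM in Ctrl hearts and ran from 9.15 through 11.3 to 16.4 CPM in Doxo hearts (log2 fold change 0.23, interval -0.07 to 0.52). The highest of these, replicate 2, also had the highest Cdkn1a of the group at 117 CPM against 15.4 to 29.6 CPM in the other 5, and without it the log2 fold change of Sirt1 was 0.12. Sirt3 was 27.3, 37.8, 44.5, 44.8 and 43.2 CPM in Ctrl hearts and ran from 30.5 through 37.4 to 44.5 CPM in Doxo hearts (-0.07, interval -0.37 to 0.23). Its value was -0.18 without Ctrl replicate 1, its lowest Ctrl heart, and -0.02 without Doxo replicate 2.

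Sirt7 had the widest interval, -0.67 to 0.16 around a log2 fold change of -0.26. Its Ctrl hearts were at 43.3, 15.5, 20.6, 21.8 and 20.1 CPM. Replicate 1 lay far above the other 4 hearts, and without it the log2 fold change was 0.06 (edgeR adjusted p = 0.925). The intervals of the other members in Doxo vs. Ctrl were -0.18 to 0.29 for Sirt2, -0.30 to 0.16 for Sirt4 and -0.26 to 0.20 for Sirt6. In Doxo-NMN vs. Doxo all 7 log2 fold changes lay between -0.08 (Sirt1, interval -0.36 to 0.19) and 0.17 (Sirt7, interval -0.22 to 0.57), and in Doxo-NMN vs. Ctrl between -0.09 (Sirt7, interval -0.50 to 0.33) and 0.15 (Sirt1, interval -0.15 to 0.44). A missing call does not show that the groups were alike.

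**Figure D5:**
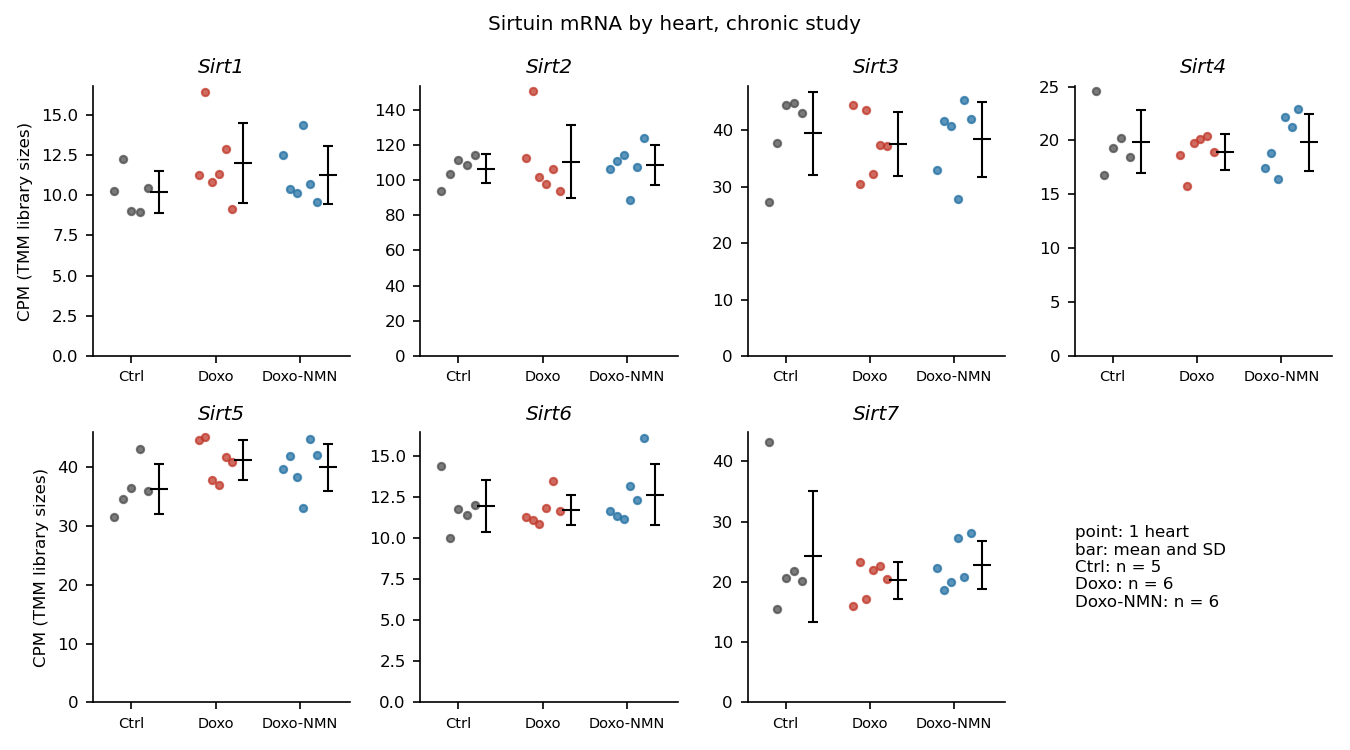
CPM of each sirtuin in the chronic study, 1 point per heart, with the group mean and SD as a black bar (Ctrl n = 5, Doxo n = 6, Doxo-NMN n = 6). The groups overlap for every member, and Ctrl replicate 1 stands alone for Sirt7 at 43.3 CPM.

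The effects in the 2 studies were set against each other in an interaction over all 6 groups and 15152 genes. The Doxo effect differed for 4 members, where 23.6% of genes were called. The log2 difference, acute minus chronic, was 0.74 for Sirt1 (SE 0.223, edgeR adjusted p = 0.0143), -0.84 for Sirt3 (SE 0.237, adjusted p = 0.00983), -0.51 for Sirt4 (SE 0.178, adjusted p = 0.0339) and -0.54 for Sirt5 (SE 0.155, adjusted p = 0.0102). Sirt7 was at the edge of the threshold (0.45, SE 0.172, adjusted p = 0.0508). Without chronic Ctrl replicate 1 it was at 0.13 with an adjusted p of 0.529, and without acute Doxo replicate 6 at 0.47 with 0.0293. It was called too without chronic Doxo replicate 2 (0.49, edgeR adjusted p = 0.0324), with acute counts divided by 2 (0.45, adjusted p = 0.0463) and with RLE scaling (0.47, adjusted p = 0.0404). Sirt2 (0.30, interval 0.02 to 0.57) and Sirt6 (-0.20, interval -0.54 to 0.15) were not called, although Sirt2 was with limma (0.47, adjusted p = 8.12e-05) and, by edgeR, without chronic Doxo replicate 2 (0.40, adjusted p = 0.0170). The 4 members called kept their calls without either chronic heart.

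The NMN effect in Doxo hearts differed for 2 members, where 6.09% of genes were called: Sirt1 (-0.69, SE 0.216, edgeR adjusted p = 0.0456) and Sirt5 (0.60, SE 0.15, adjusted p = 0.0185). Sirt3 (0.68, SE 0.230, adjusted p = 0.0580) and Sirt4 (0.41, SE 0.173, adjusted p = 0.122) were not called with all hearts. Without acute Doxo replicate 6 they were, at 0.81 and 0.49 with adjusted p values of 0.00595 and 0.0277. Sirt3 was also called without chronic Doxo replicate 2 (0.74, edgeR adjusted p = 0.0357) and with acute counts divided by 2 (0.68, adjusted p = 0.0488). By limma Sirt2 (-0.27, adjusted p = 0.0303), Sirt3 (0.84, adjusted p = 2.9e-05) and Sirt4 (0.68, adjusted p = 6.59e-05) were called in addition. With only the Doxo and Doxo-NMN hearts in the fit no member was called, Sirt1 having an adjusted p of 0.136 and Sirt5 of 0.0754. Dose schedule, NMN route and dose, day of collection, mouse supplier, age and sequencing site all differ between the studies and cannot be told apart.

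Genes around the sirtuins were read from 7 lists with 109 genes in all, by count and median, beside a median of 0.00 over all genes in each acute comparison but Doxo-NMN vs. Ctrl (0.01). Their counts stand beside the 68.1%, 53% and 26% of all genes called in Doxo vs. Ctrl, with NMN against Doxo alone and with NMN against Ctrl. Of 14 NAD+ synthesis genes tested, 3 rose and 4 fell in acute Doxo vs. Ctrl (median log2 fold change 0.07). Nampt, the rate-limiting enzyme that makes NMN from nicotinamide, went from 219 ± 30.1 to 420 ± 87.6 CPM (0.94, SE 0.105, edgeR adjusted p = 1.59e-09), and Nmnat1, which makes nuclear NAD+ from NMN, from 23 ± 2.22 to 14.7 ± 5.80 CPM (-0.65, SE 0.132, adjusted p = 4.96e-05). In Doxo-NMN vs. Doxo 3 of the 14 were higher and 3 lower (median 0.01), with Nadsyn1, the NAD+ synthetase, higher (0.67, SE 0.0847, adjusted p = 3.78e-07) and Nampt lower (-0.42, SE 0.107, adjusted p = 0.0012). Against Ctrl 4 were higher and 1 lower (median 0.13), and Nampt remained higher at 0.52 (SE 0.105, adjusted p = 0.000385), with Nadk at -0.15 (adjusted p = 0.0208).

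Of 8 other NAD+ consumers tested, 2 rose and 2 fell with acute Doxo (median 0.04). Parp1, the poly(ADP-ribose) polymerase of DNA repair, fell from 63.4 ± 2.15 to 44.6 ± 8.59 CPM (-0.51, SE 0.0678, edgeR adjusted p = 4.59e-08) and the tankyrase Tnks rose by 0.55 on the log2 scale (SE 0.0676, adjusted p = 1.09e-08). With NMN, 2 were higher and 2 lower than in Doxo hearts (median 0.05). Parp1 was higher by 0.45 (adjusted p = 3.67e-06), and Cd38, an NAD+ hydrolase, was lower at -0.80 (SE 0.156, adjusted p = 6.88e-05). Against Ctrl, 1 was higher (Tnks, 0.22, adjusted p = 0.0164) and 1 lower (Tnks2, -0.29, adjusted p = 0.000973), with a median of -0.02.

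Among 19 genes known to regulate sirtuins, 2 rose and 8 fell with acute Doxo (median -0.17). Hic1, a repressor of Sirt1 transcription, went from 14.9 ± 2.67 to 6.12 ± 2.97 CPM (-1.28, SE 0.196, edgeR adjusted p = 5.5e-07), and Senp1, a SUMO protease, rose by 0.37 on the log2 scale (SE 0.0534, adjusted p = 1.73e-07). With NMN, 5 were higher and 3 lower than in Doxo hearts (median 0.08). Ppargc1a, which encodes PGC-1alpha, a coactivator that drives Sirt3 expression and a Sirt1 substrate, was at 335 ± 115 against 140 ± 79.8 CPM (1.25, SE 0.228, adjusted p = 3.09e-05), with 386 ± 115 CPM in Ctrl hearts. Senp1 was lower by -0.22 (adjusted p = 0.000883). Against Ctrl, 3 were higher and 2 lower (median -0.09), led by Usp22 (0.26, adjusted p = 0.00391) and E2f1 (-1.28, adjusted p = 0.000282), the latter at 0.841 ± 0.143 CPM in Ctrl and 0.345 ± 0.138 in Doxo-NMN hearts.

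The genes of sirtuin substrates moved both ways. Of 22 mitochondrial substrates tested, 7 rose and 3 fell with acute Doxo (median 0.06), with Idh2, the NADPH-making isocitrate dehydrogenase, going from 1413 ± 209 to 2566 ± 636 CPM (0.86, SE 0.112, edgeR adjusted p = 2.86e-08) and Ppif, cyclophilin D of the permeability transition pore, from 134 ± 15.8 to 77.6 ± 33.2 CPM (-0.79, SE 0.155, adjusted p = 2.75e-05). With NMN 3 were higher and 3 lower than in Doxo hearts (median -0.04), Ppif being higher at 0.62 (adjusted p = 0.00118). Against Ctrl 5 were higher and 0 lower (median 0.07), led by Acss1 (0.49, adjusted p = 0.000385). Of 27 nuclear and cytosolic substrates, 13 rose and 7 fell with Doxo (median 0.11), led by Crtc2 (0.90, SE 0.0933, adjusted p = 3.61e-10) and the autophagy gene Atg5 (-0.42, SE 0.0627, adjusted p = 2.75e-07). With NMN 9 were higher and 10 lower (median -0.06), led by Ppargc1a and by Nos3, the endothelial nitric oxide synthase (-0.87, SE 0.115, adjusted p = 6.02e-07). Against Ctrl 7 were higher and 3 lower (median -0.01), led by Nr1h3 (0.67, adjusted p = 9.34e-08) and Atg5 (-0.23, adjusted p = 0.00622).

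Other enzymes of lysine acetylation were read the same way. Of 11 zinc-dependent histone deacetylases, which do not use NAD+, 2 rose and 3 fell with Doxo (median 0.01), led by Hdac6, the tubulin deacetylase (0.74, SE 0.0931, edgeR adjusted p = 1.49e-08), and Hdac9 (-0.68, SE 0.121, adjusted p = 6.3e-06). With NMN against Doxo alone each had the other sign and was called (Hdac6 -0.46, adjusted p = 0.000133; Hdac9 0.81, adjusted p = 2.72e-06), where 2 of 11 were higher and 1 lower (median -0.02). Against Ctrl 2 were higher, led by Hdac3 (0.14, adjusted p = 0.0132), and 0 lower (median 0.05). Of 10 lysine acetyltransferases, 7 rose and 2 fell with Doxo (median 0.27), led by Kat2b (0.40, SE 0.0532, adjusted p = 3.73e-08) and Kat2a (-0.36, SE 0.0585, adjusted p = 1.19e-06). With NMN 1 was higher, Kat2a (0.32, adjusted p = 3.32e-05), and 4 lower, led by Crebbp (-0.40, adjusted p = 1.83e-05), with a median of -0.09. Against Ctrl, Kat5 was higher (0.25, adjusted p = 0.00421) and Kat6a lower (-0.15, adjusted p = 0.0307), with a median of 0.07.

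In the chronic study none of the 101 list genes tested was called in any of the 3 comparisons by edgeR, DESeq2 or limma. By edgeR 8 had an unadjusted p under 0.05 in Doxo vs. Ctrl, 1 in Doxo-NMN vs. Doxo and 4 in Doxo-NMN vs. Ctrl. The list medians in Doxo vs. Ctrl ran from -0.10 (NAD+ synthesis) to 0.07 (lysine acetyltransferases), beside 0.00 over all genes.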

How the data were processed

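Whole-heart RNA was sequenced after poly(A) selection. The authors mapped reads to mm10 with STAR (2.7.3a in the submitters' processing notes) and deposited raw counts per gene made with featureCounts 2.0.0. The annotation and strand setting of the counting are not given in the sources used here. All columns were matched to samples through their labels.

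Counts were tested with edgeR 4.0.16 (R 4.3.3): TMM scaling, filterByExpr by group, and the quasi-likelihood test on the 3 groups of a study together, with Benjamini-Hochberg adjustment over all genes tested and a call at an adjusted p under 0.05. The interaction used genes in both tables. On the same filter all 7 sirtuins were tested. CPM and RPKM used TMM library sizes, RPKM with the exon length of GENCODE M21 on GRCm38. Correlations used log2 CPM with a prior count of 2 and two-sided permutation tests with 100000 resamples. limma 3.58.1 (voom with sample weights) and DESeq2 1.42.0 were alternatives, with RLE scaling, other filters, acute counts divided by 2, hearts split at 100 CPM of Myl4, a replicate block, the compared groups alone and each heart left out. No 2 libraries of a group agreed within sampling noise (lowest chi-square per gene 10.4 acute, 5.49 chronic). On simulated data for Doxo vs. Ctrl, 197 of 200 genes changed 2-fold were recovered at the acute size (14160 genes, 10 false calls) and 186 of 200 at the chronic size (14838 genes, 6 false calls), and 151 of 200 for the interaction of the Doxo effects (14970 genes, 5 false calls). In these simulations the changed genes were among the better counted ones, each gene had the same spread in all groups, and all other genes were unchanged. Changes under 2-fold, such as the chronic sirtuin estimates, were not simulated, so these recoveries do not apply to them. Between 80 and 4652 counts stood behind each sirtuin value.

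The members and lists were chosen with earlier results of these data known. Named were all members, from each list and acute comparison the called gene of lowest adjusted p among those higher and among those lower, any list gene called in the chronic study, Cdkn1a, Myl4, the 3 genes most like each member, and overlapping or head to head genes. A list gene that the rule would name is not reported here. Proteins of the family were not analysed here.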

Additional observations from a re-analysis of the deposited data

Results flagged for a closer look

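In groups of 4 to 10 hearts, the highest or lowest heart was set against the others by its gap over the group's range. Of 21 such groups, 4 had a heart past Dixon's 95% limit, where chance flags about 1 in 20. The 21 share the same 17 hearts and are not independent, so an excess over chance is not shown. Sirt7 stood at 43.3 CPM in chronic Ctrl replicate 1. In chronic Doxo replicate 2, Sirt2 was at 150.4 CPM and Sirt4 at 15.8 CPM. Sirt6 was at 13.4 CPM in chronic Doxo replicate 5. Sirt4 and Sirt6 were just past the limit, with gap ratios of 0.629 and 0.631 against 0.625.

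Effects that differed between the studies by the interaction test were the Doxo effect on Sirt1 (log2 difference 0.74), Sirt3 (-0.84), Sirt4 (-0.51) and Sirt5 (-0.54), and the NMN effect in Doxo hearts on Sirt1 (-0.69) and Sirt5 (0.60). The regimens, mouse suppliers, ages and sites differ with the study and cannot be told apart.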

How the results depend on the processing

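In acute Doxo vs. Ctrl between 5 and 7 sirtuins were called under every alternative that kept the adjusted p alone (6 to 7 without any one heart), and 2 with the 1.5-fold mark. In acute Doxo-NMN vs. Doxo that mark left 2, and 5 to 6 were called without any one heart. In acute Doxo-NMN vs. Ctrl the 2 calls became 5 with only the groups compared, 0 under or at and above 100 CPM of Myl4, 0 with the 1.5-fold mark and 1 to 2 without any one heart. For the NMN effect, acute against chronic, the 2 calls became 5 with limma, 0 with only the groups compared and 2 to 4 with 1 heart left out (acute Doxo replicate 6, or chronic Ctrl replicate 1 or Doxo replicate 2, these chronic hearts being chosen after seeing the data), where the 4 calls of the Doxo effect became 4 to 6.

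Signs that turned were all of uncalled values. In acute Doxo-NMN vs. Doxo, Sirt7 was at -0.04 with limma and -0.09 at or above 100 CPM of Myl4. With limma in the chronic study, Sirt2 (-0.10), Sirt4 (0.03) and Sirt6 (0.02) turned in Doxo vs. Ctrl, Sirt2 (0.11), Sirt4 (-0.03) and Sirt5 (0.01) in Doxo-NMN vs. Doxo, and Sirt7 (0.06) in Doxo-NMN vs. Ctrl. With 1 heart left out, chronic values ranged in Doxo vs. Ctrl from -0.05 to 0.10 for Sirt2, -0.12 to 0.02 for Sirt4, -0.08 to 0.05 for Sirt6 and -0.38 to 0.06 for Sirt7; in Doxo-NMN vs. Doxo from -0.17 to 0.02 for Sirt1, -0.07 to 0.08 for Sirt2 and -0.03 to 0.10 for Sirt3; and in Doxo-NMN vs. Ctrl from -0.02 to 0.08 for Sirt2, -0.15 to 0.04 for Sirt3, -0.06 to 0.08 for Sirt4 and -0.21 to 0.22 for Sirt7. Without acute Doxo replicate 6, r of Sirt7 with Cdkn1a among Doxo hearts was -0.22. With the longest transcript as length, 2, 4 and 2 members changed place in acute Ctrl, Doxo and Doxo-NMN hearts, and 2, 5 and 5 in the chronic groups. These places differ because the same CPM are divided by other lengths. The cause of the turned signs was not tested.

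Replicate numbers recur across groups. Of same-numbered pairs, 18 of 39 acute and 4 of 16 chronic pairs had a correlation of deviations over 0.1. The median was 0.061 against -0.033 for other pairs in the acute study, and 0.022 against -0.014 in the chronic study. These values cannot settle whether the numbers pair the hearts, and the main fits used no pairing. With the number as a block, 6 sirtuins were called in acute Doxo vs. Ctrl (Sirt6 lost, -0.24, adjusted p = 0.0556), 5 with NMN against Doxo alone, 1 with NMN against Ctrl (Sirt2 lost, 0.18, adjusted p = 0.0744) and 0 in each chronic comparison. For the NMN effect across studies the block dropped Sirt1 (-0.65, adjusted p = 0.0502) and added Sirt3 (0.74, adjusted p = 0.0443). 4 of 40 acute and 3 of 17 chronic hearts correlated best with their own number.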
